A study of Caenorhabditis elegans with 2 samples.

Results

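Enzymes of glycolysis and of the citric acid cycle are encoded by 36 Caenorhabditis elegans genes considered here, of the 19973 protein-coding nuclear genes annotated in build WBcel235 (ce11). The genes were chosen by name, with earlier results of these data known, and all 36 matched the annotation. Of these, 21 encode cytosolic enzymes, 13 encode enzymes of the mitochondrial matrix, and the 2 phosphoenolpyruvate carboxykinase genes were kept apart because their compartment was not assigned. The compartments come from gene names and textbook roles and were not measured here. Binding of NFYA-1 was measured by chromatin immunoprecipitation and sequencing in whole late embryos of hermaphrodite strain OP404, genotype unc-119(tm4063) III; wgIs404. Both biological replicates, the only group, carry a transgene for NFYA-1 with GFP and FLAG at its C terminus, and the tag was precipitated with an anti-GFP antibody per the labels. A whole embryo mixes all its tissues, so no value can be placed in a cell type, and peak lists cannot be checked against tissue markers.

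NFYA-1 is the A subunit of NF-Y, a trimer conserved among eukaryotes that recognises the CCAAT box and is known mainly from promoters. Glycolysis splits glucose into pyruvate in the cytosol. In the mitochondrial matrix the pyruvate dehydrogenase complex turns pyruvate into acetyl-CoA, which the citric acid cycle oxidises while it feeds electrons to the respiratory chain. Many worm messenger RNAs receive a spliced leader, so an annotated start can lie downstream of the site where transcription begins.

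The peak list that passed the authors' reproducibility threshold held 4098 regions, 4084 of them on nuclear chromosomes, with signal values of the caller between 58.2 and 9543. A gene was scored as bound where a peak summit lay between 500 bp upstream and 100 bp downstream of any start of a coding transcript. Under this rule 14 of the 36 genes were bound (38.9%, 95% Wilson interval 24.8 to 55.1), against 11.2% of all coding genes. The mitochondrial enzymes accounted for most of them, with 10 of 13 genes bound (76.9%, 49.7 to 91.8). Among the cytosolic enzymes 4 of 21 were bound (19.05%, 7.67 to 40.0), and neither phosphoenolpyruvate carboxykinase gene was. The intervals treat genes as independent and cover counting error only. Genes are not replicates and there was no second condition, so the shares are given beside the background with no test.

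**Figure D1:**
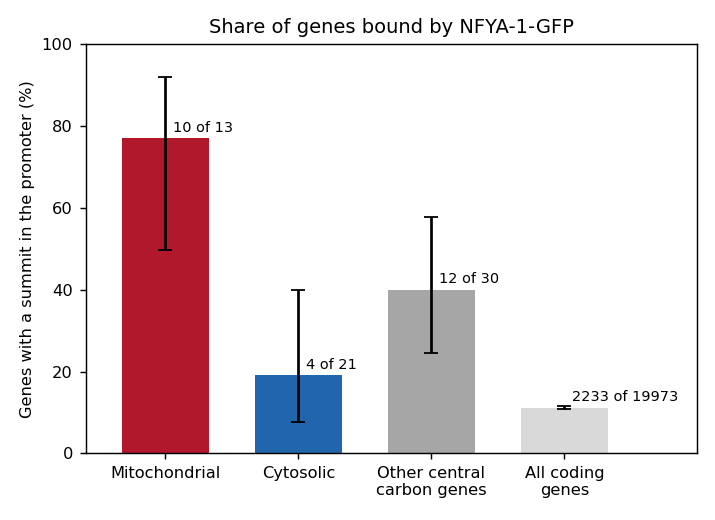
Percentage of genes with a peak summit in the promoter (bars) with 95% Wilson intervals (lines), for mitochondrial members, cytosolic members, 30 other genes of central carbon metabolism and all coding genes. The mitochondrial bar stands at 76.9% and the cytosolic bar at 19.05%, beside 11.2% for all coding genes.

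The bases around the summits show which boxes lay there. The lines below run from 50 bp before to 50 bp after the summit, from the RefSeq copy of WBcel235, read 5′ to 3′ on the strand of the gene. They are those of dld-1 and idhg-1, which had the highest signals, of the cycle genes suca-1 and cts-1, and of the cytosolic aldolase gene aldo-1. Capitals mark 3 motifs, searched on both strands. The first is the box, CCAAT, which reads ATTGG on the other strand. The second is the repeat CTCTC, or GAGAG on the other strand. The last is CGCGC, or GCGCG on the other strand. Matches to the same motif may overlap, as may matches to different motifs.

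dld-1 (chrIV:14464218-14464318, + strand): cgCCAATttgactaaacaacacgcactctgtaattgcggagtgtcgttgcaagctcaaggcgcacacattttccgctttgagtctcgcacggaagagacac

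idhg-1 (chrIII:4568695-4568795, + strand): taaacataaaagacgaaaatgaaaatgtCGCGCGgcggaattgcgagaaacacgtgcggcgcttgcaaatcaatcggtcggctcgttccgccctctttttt

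suca-1 (chrX:10900231-10900331, - strand): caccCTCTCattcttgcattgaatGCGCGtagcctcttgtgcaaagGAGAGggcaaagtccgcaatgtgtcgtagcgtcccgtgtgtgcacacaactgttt

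cts-1 (chrIII:10216827-10216927, - strand): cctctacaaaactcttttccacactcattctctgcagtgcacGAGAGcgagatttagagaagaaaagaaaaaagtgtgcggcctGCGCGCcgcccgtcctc

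aldo-1 (chrIII:13565056-13565156, - strand): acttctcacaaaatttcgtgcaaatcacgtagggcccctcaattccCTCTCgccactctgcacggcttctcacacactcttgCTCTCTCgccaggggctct

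Of these 5 windows, that of dld-1 was the one with a CCAAT box, centred 46 bp upstream of the summit. The windows of suca-1, cts-1 and aldo-1 held CTCTC or GAGAG, and those of idhg-1, suca-1 and cts-1 held CGCGC or GCGCG. None of the 5 windows overlapped an annotated UTR or coding exon. The choice left out chromosome I and windows with over 30 bases of UTR. All 5 held at least 1 of the 3 motifs, while the windows of the bound genes hxk-2, idhb-1 and fum-1 held none.

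In the pyruvate dehydrogenase complex, the strongest summit was that of dld-1, which encodes the dihydrolipoamide dehydrogenase (E3) that this complex shares with oxoglutarate dehydrogenase. The dld-1 gene (WBGene00010794, chromosome IV, 14464517 to 14469136) had a signal of 437 and ranked 131 in the peak list, with its summit 249 bp upstream of the start. Its region had signals of 215 in replicate 1 and 221 in replicate 2. The gene of the E1 beta subunit, pdhb-1 (WBGene00015413, chromosome IV, 3399672 to 3403908), had a signal of 102 and ranked 2197. Its signals were 51.3 in replicate 1 and 51.1 in replicate 2. The summit lay 385 bp upstream of pdhb-1 but 56 bp upstream of the start of dyf-3, a gene for sensory cilia, so the peak is shared. The E1 alpha gene pdha-1 was not bound, and its nearest summit lay 3.85 kb upstream at the promoter of ufd-2. No region of the longer pooled list or of either replicate lay in the pdha-1 promoter.

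The genes idha-1, idhb-1 and idhg-1, for the 3 kinds of subunit of the NAD-dependent isocitrate dehydrogenase, which makes oxoglutarate and NADH, were all bound. The gamma subunit gene idhg-1 (WBGene00009440, chromosome III, 4568797 to 4571865) had a signal of 392, ranked 186, with its summit 52 bp upstream. It had signals of 195.9 in replicate 1 and 195.6 in replicate 2. The beta subunit gene idhb-1 (WBGene00007993, chromosome X, 14170730 to 14174063) had a signal of 145, ranked 1348, with its summit in the 5' UTR 3 bp from the start. Its signals were 75.05 in replicate 1 and 75.6 in replicate 2. The alpha subunit gene idha-1 (WBGene00009664, chromosome I, 8606549 to 8608631) had the lowest signal of the bound members, 62.96, ranked 3791. It had signals of 40.4 in replicate 1 and 25.1 in replicate 2, where its region ranked 4795 and so fell outside the 4098 strongest. The 3 genes thus span most of the range seen among the bound members. A second gamma subunit gene outside the 36, idhg-2, was not bound, and its nearest summit in the peak list lay 8.82 kb upstream. The longer pooled list, which also holds background regions, had a region 104 bp upstream of idhg-2 with a signal of 41.0. Promoter signals there were 18.3 in replicate 1 and 24.3 in replicate 2.

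The other bound genes of the cycle had middling signals. Citrate synthase gene cts-1 (WBGene00000833, chromosome III, 10214771 to 10216635), which opens the cycle, had a signal of 129.9 with its summit 242 bp upstream. It had 79.5 in replicate 1 and 48.9 in replicate 2. The mitochondrial aconitase gene aco-2 (WBGene00000041, chromosome III, 7973717 to 7977355) had a signal of 132 at 297 bp upstream, with 80.8 in replicate 1 and 42.2 in replicate 2. That summit was 34 bp upstream of the translation elongation factor gene eef-1B.1, so this peak too is shared. For suca-1 (WBGene00009812, chromosome X, 10897678 to 10900114), which encodes a beta subunit of succinyl-CoA ligase, the signal was 147 at 167 bp upstream. It had 86.8 in replicate 1 and 62.4 in replicate 2.

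The last steps of the cycle were represented by fumarase and malate dehydrogenase. Fumarase gene fum-1 (WBGene00001503, chromosome III, 7465605 to 7467640) had a signal of 82.3, with its summit 47 bp downstream of the start in a coding exon. Its signals were 32.2 in replicate 1, where it ranked 4107 and missed the 4098 strongest, and 47.5 in replicate 2. The mitochondrial malate dehydrogenase gene mdh-2 (WBGene00003162, chromosome III, 6606544 to 6608106) had a signal of 119.9 at 232 bp upstream, in a peak shared with F20H11.4. It had 69.4 in replicate 1 and 47.9 in replicate 2. Among the cycle genes ogdh-1 and sucg-1, for oxoglutarate dehydrogenase E1 and the other succinyl-CoA ligase beta subunit, were not bound. The nearest summits lay 1393 bp upstream of ogdh-1 and 19.0 kb upstream of sucg-1.

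**Figure D2:**
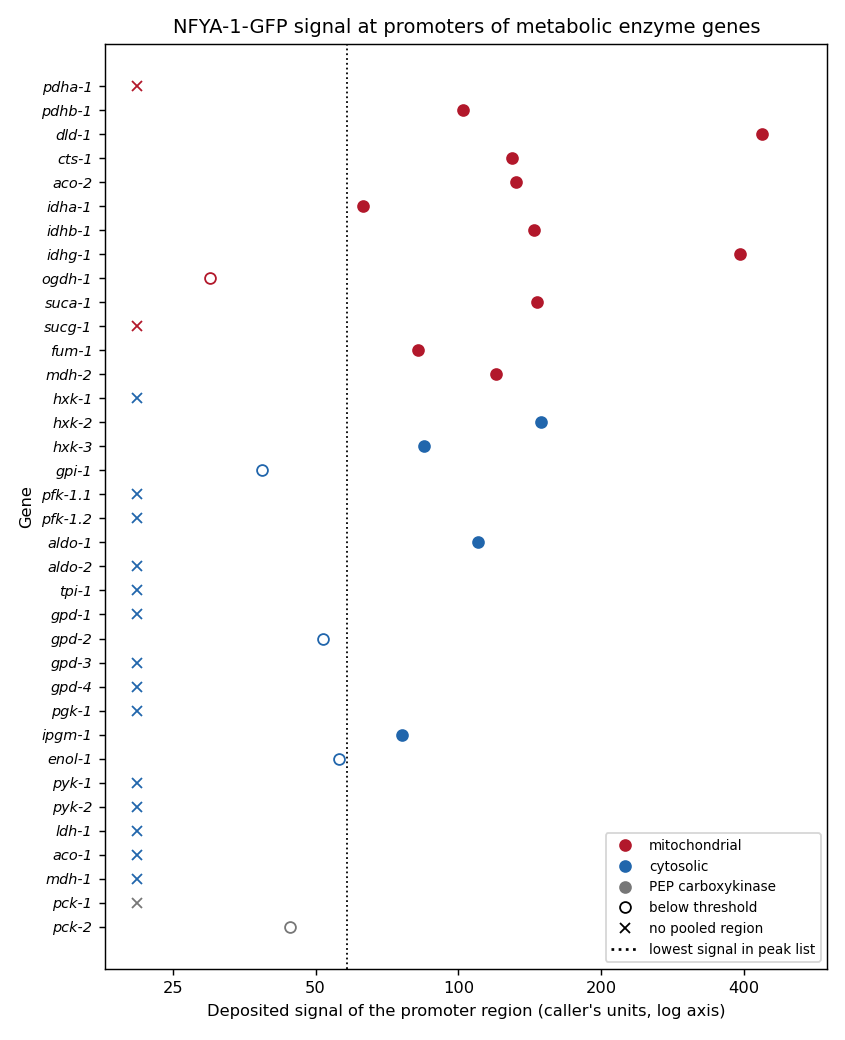
Deposited signal (horizontal, log axis, caller's units) of the promoter region of each of the 36 genes, with mitochondrial genes above, cytosolic genes in the middle and phosphoenolpyruvate carboxykinase genes at the bottom. Filled points are peaks, open points are regions of the longer pooled list below the threshold, crosses are genes with no pooled region in the promoter, and the dotted line is the lowest signal in the peak list, 58.2. Filled points stand at 10 of 13 mitochondrial and 4 of 21 cytosolic genes.

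Along glycolysis, the 4 bound genes encode enzymes of 3 steps. Hexokinase, which phosphorylates glucose on entry, had 2 of its 3 genes bound. The summit of hxk-2 (WBGene00010416, chromosome I, 11311524 to 11323110) had a signal of 149.6, the highest of the cytosolic genes, at 223 bp upstream. It had 55.9 in replicate 1 and 94.3 in replicate 2. This peak is shared with cdk-9, a kinase gene of transcription elongation, whose start was 194 bp away. The summit of hxk-3 (WBGene00022306, chromosome IV, 1497626 to 1510027) had a signal of 84.6 and lay in its 5' UTR, 17 bp from the start, with 37.5 in replicate 1 and 44.6 in replicate 2.

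Of the 2 aldolase genes, whose product splits fructose 1,6-bisphosphate, aldo-1 was bound and aldo-2 was not. The summit of aldo-1 (WBGene00011474, chromosome III, 13563346 to 13564937) had a signal of 110.2 at 169 bp upstream. It had 48.4 in replicate 1 and 59.9 in replicate 2. The nearest summit to aldo-2 lay 2853 bp upstream, at the promoter of hpo-10. The gene of the cofactor-independent phosphoglycerate mutase, ipgm-1 (WBGene00019001, chromosome I, 6569557 to 6572600), had a signal of 76.2 at 127 bp upstream, with 33.97 in replicate 1 and 41.9 in replicate 2. The summit in replicate 1 lay 86 bp from that of the peak list, the largest shift among the bound members.

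The remaining steps of glycolysis had no bound gene. None of the 4 glyceraldehyde-3-phosphate dehydrogenase genes (gpd-1 to gpd-4), neither phosphofructokinase gene (pfk-1.1 and pfk-1.2) and neither pyruvate kinase gene (pyk-1 and pyk-2) was bound. The gpd genes are near copies of each other, and stretches of 36 bases that recur elsewhere in the nuclear genome made up 13.8% of the promoter window of gpd-1, 7.95% of gpd-2, 16.4% of gpd-3 and 13.1% of gpd-4, against 0% in every bound member. Of the other members that were not bound, pfk-1.2 had 7.95%, sucg-1 3.18% and tpi-1 1.94%, and the rest had 0%. The part of unplaced reads in the missing peaks was not tested. Also not bound were hxk-1, gpi-1 (glucose-6-phosphate isomerase), tpi-1 (triosephosphate isomerase), pgk-1 (phosphoglycerate kinase), enol-1 (enolase) and ldh-1 (lactate dehydrogenase). The aconitase gene aco-1 and the malate dehydrogenase gene mdh-1, both taken as cytosolic, were not bound either, while their mitochondrial counterparts aco-2 and mdh-2 were. The nearest summits to aco-1 and mdh-1 lay 40.1 and 22.0 kb upstream of their starts.

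Summits close to a start but outside the promoter were seen at 3 of the 22 genes that were not bound, within 1000 bp. All 3 lay in an intron of the gene itself. The summit in pyk-1 was 227 bp downstream of a start (signal 79.4), that in ldh-1 397 bp downstream (70.3) and that in pck-2 633 bp downstream (73.7). For the others the distance from the nearest start reached 42.5 kb, at pfk-1.1. The median over all 22 genes was 4.88 kb. Neither the count within 1000 bp nor the median was computed over all coding genes that were not bound, so both only describe the members. The gene ldh-1 was bound with a promoter from 1000 bp upstream to 200 bp downstream, and pyk-1 where any overlap of a peak with the promoter counted. The genes gpd-2 and gpd-3 lie in tandem on chromosome X downstream of mai-1, and their nearest summit was the same one, in the 5' UTR of mai-1 (signal 110.5), 1722 bp upstream of gpd-2 and 3070 bp upstream of gpd-3. Both were scored at their own annotated starts, and whether the summit at mai-1 serves them was not tested.

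Below the threshold, 5 of the 22 genes that were not bound had a summit of the longer pooled list in the promoter, against 14.1% of all coding genes that were not bound. That list also holds background regions. The 5 were enol-1 (signal 56.0), gpd-2 (51.95), pck-2 (44.1), gpi-1 (38.6) and ogdh-1 (29.98). Without replicate 2, taking the 4098 strongest regions of replicate 1, enol-1, gpd-2 and pck-2 were bound. The cytosolic count was then 6 of 21, against 10.5% of all coding genes. The region of enol-1 lay 89 bp upstream and was just under the lowest signal of the peak list. It had signals of 41.8 in replicate 1, where it ranked 3038, and 19.2 in replicate 2, where it ranked 6817. The region of gpd-2 was found in replicate 1, with a signal of 34.98 and a rank of 3743, and not in replicate 2. The other 17 genes had no pooled region in the promoter, and 10 of the 22 had none in either replicate's own list. The count of 10 has no counterpart over all coding genes that were not bound, so it only describes the members.

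In both replicates' lists, every one of the 14 bound genes had a region over its summit. That count was not made over all bound coding genes, so it only describes the members. Counting the 4098 strongest regions of each replicate, 12 of 14 were found in both, and the same held for 79.4% of all 2233 bound coding genes. The exceptions were idha-1, missing from replicate 2, and fum-1, missing from replicate 1. The peak list was made from both replicates together, so these shares are not independent of it. No source used here gives the scale of the signal, and each value is the authors' own and ranks regions within 1 list.

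**Figure D3:**
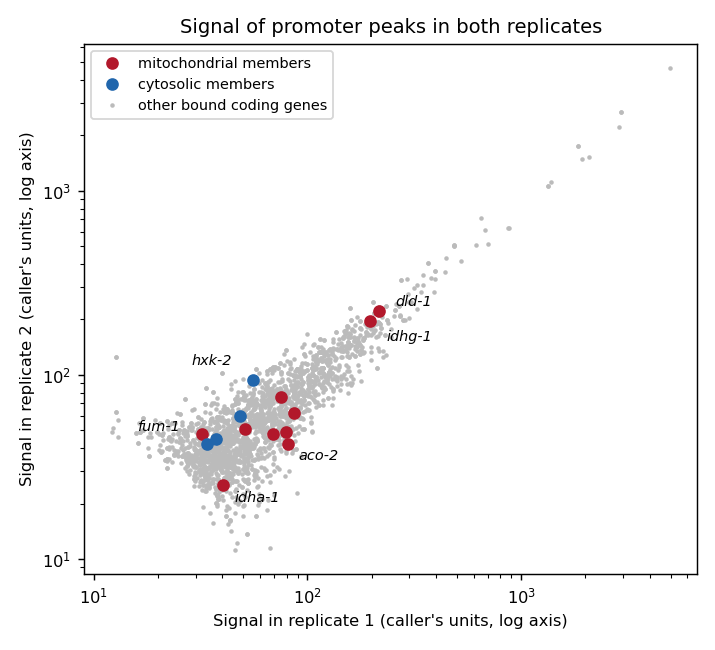
Signal of the region over each promoter summit in replicate 1 (horizontal) and replicate 2 (vertical), both on log axes in the caller's units, for mitochondrial members, cytosolic members and the other bound coding genes. The points of dld-1 and idhg-1 stand above the rest of the members, at 215 and 221 for dld-1, while idha-1 has the lowest value in replicate 2, 25.1.

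The signals of the bound enzyme genes lay within the range of all bound promoters. Their median signal was 124.9 (lowest 62.96, highest 437), against 109.8 over all bound coding genes, and 9 of 14 lay above that value. The 10 mitochondrial genes had a median of 131 and the 4 cytosolic genes a median of 97.4, with ranges that overlapped (62.96 to 437 and 76.2 to 149.6). Apart from dld-1 and idhg-1, every bound member had a signal under 150.

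The summits sat mostly upstream of the starts. Of the 14, 11 were upstream and 3 (hxk-3, idhb-1 and fum-1) downstream, against 95.7% upstream among all bound coding genes. The median position was -196 bp, against -192 bp for all bound coding genes. Between 150 and 300 bp upstream lay 8 of the 14 summits, and 40.2% of those of all bound coding genes. Peaks shared with another coding gene were 4 of 14 (hxk-2, pdhb-1, aco-2 and mdh-2), against 41.3% of all bound coding genes.

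**Figure D4:**
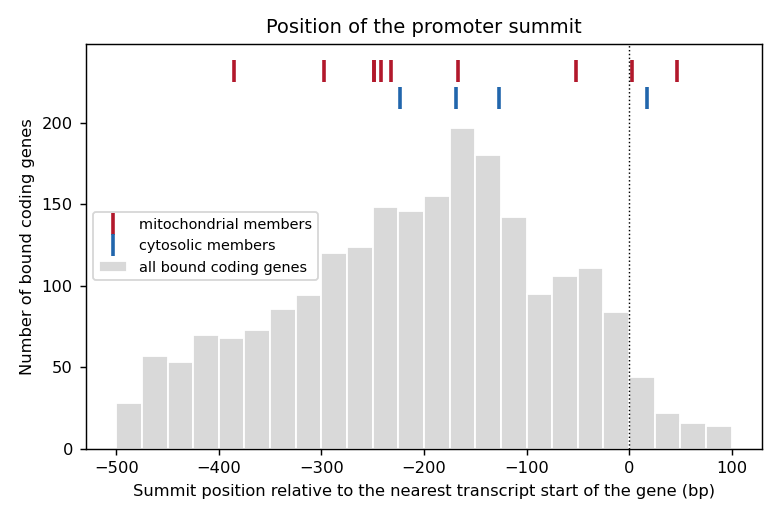
Position of the promoter summit relative to the nearest start of the gene in bp (negative upstream), as ticks for the mitochondrial and cytosolic members above a histogram of all 2233 bound coding genes. Most ticks fall where the histogram is high, and 3 ticks lie downstream of the start.

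The CCAAT box was found within 50 bp of the summit in 2 of the 14 bound genes, dld-1 and idha-1, against 19.5% of all bound coding genes and 32.9% of all nuclear peaks. Both are mitochondrial, so the counts were 2 of 10 mitochondrial and 0 of 4 cytosolic genes. The fuller sequence CCAAT followed by C or G and then A or G stood at idha-1 alone, centred 19 bp from the summit, against 7.52% of all bound coding genes. The box of dld-1 lay near the edge of the window, and within 25 bp of the summit it no longer counted. Of the other 12 bound genes, 8 had their nearest box between 63 bp (fum-1) and 399 bp (mdh-2) from the summit. The other 4 (hxk-2, ipgm-1, pdhb-1 and aco-2) had none within 500 bp. No bound member had boxes on the same strand with starts 32 bp apart within 150 bp of the summit, a spacing found at 1.07% of all bound coding genes. A match is a run of letters and not a binding site, and no match says nothing about the factor.

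Over whole promoters CCAAT was no more frequent in bound than in other members. In windows of 601 bp from 500 bp upstream to 100 bp downstream of the annotated gene start, CCAAT was present in 9 of 14 bound members (64.3%), in 16 of 22 that were not bound (72.7%) and in 71.8% of all coding genes. By compartment the counts were 10 of 13 mitochondrial and 14 of 21 cytosolic genes. At the summits of the bound members CTCTC was present in 7 of 14, against 39.3% of all bound coding genes. CGCGC was present in 6 of 14 (42.9%), against 36.7%.

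GC content at the summits lay above the median of bound coding genes in 11 of the 14. The windows reaching 50 bp to each side of the summit had a median of 52.5% (lowest 35.6%, highest 60.4%), against 47.5% over all bound coding genes. The mitochondrial genes ranged from 47.5% for idha-1 to 60.4% for idhb-1. Among the cytosolic genes, hxk-2 (35.6%) and ipgm-1 (37.6%) were low and hxk-3 (52.5%) and aldo-1 (54.5%) were in the mitochondrial range. Whether base composition or general promoter accessibility contributes to these peaks was not tested, since control data were not used here.

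**Figure D5:**
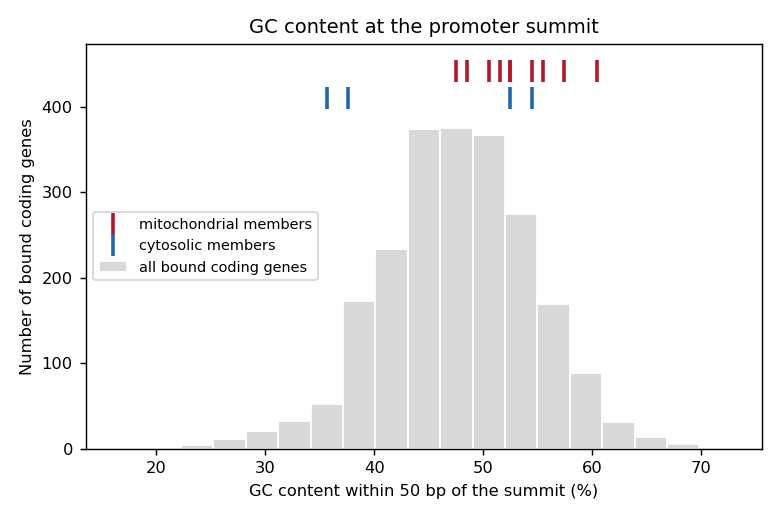
GC content in percent within 50 bp of the promoter summit, as ticks for the mitochondrial and cytosolic members above a histogram of all 2233 bound coding genes. The mitochondrial ticks run from 47.5% to 60.4%, while the cytosolic ticks fall at 35.6%, 37.6%, 52.5% and 54.5%.

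Other genes of central carbon metabolism, from a list of 31 of which 30 matched the annotation, were bound in 12 of 30 cases (40.0%, 95% Wilson interval 24.6 to 57.7), against 11.2% of all coding genes. The count was 7 without replicate 2 (10.5% of all coding genes) and 7 where each summit went to its nearest start alone (8.85%). It was 5 in the upper 50% of peaks (5.68% of all coding genes) and 19 with the whole pooled list (23.7%). Several complete the same mitochondrial enzymes. The succinyl-CoA ligase alpha subunit gene sucl-1 had a signal of 613, ranked 60, which exceeded every member, with CCAAT centred 17 bp from its summit. The related gene sucl-2 was not bound. The E2 gene of oxoglutarate dehydrogenase, dlst-1, was bound (rank 1271) and had no box within 500 bp of its summit, and the E2 gene of pyruvate dehydrogenase, dlat-1, was not bound. Of the 4 succinate dehydrogenase subunit genes sdha-1 (105.5), mev-1 (149.1) and sdhd-1 (58.2) were bound and sdhb-1 was not. The signal of sdhd-1 was the lowest in the peak list. Its region ranked 4536 in replicate 1 and 4368 in replicate 2, outside the strongest regions counted for each. The regions of sdha-1 and mev-1 were among the strongest in both replicates. The peaks of mev-1 and sdhd-1 are shared with other genes. Both regulators of pyruvate dehydrogenase in the list were bound, the kinase gene pdhk-2 with a signal of 274 and the phosphatase gene pdp-1 with 78.9.

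Beyond the cycle itself, binding varied by enzyme. The isocitrate lyase and malate synthase gene icl-1 (71.1), which serves the glyoxylate shunt, and the NADP-dependent isocitrate dehydrogenase genes idh-1 (65.9) and idh-2 (80.5) were bound. The region of idh-1 had a signal of 18.4 in replicate 1 (rank 8977) and 48.2 in replicate 2 (rank 2283). Its summit in replicate 1 lay 167 bp from that of the peak list. The regions of idh-1, icl-1 (rank 4287) and idh-2 (rank 4183) fell outside the strongest regions counted for replicate 1. In replicate 2 all of them were among the strongest. In the pentose phosphate pathway rpia-1, for ribose-5-phosphate isomerase, was bound (59.4), while gspd-1, tald-1 and tkt-1 were not. The glycogen synthase gene gsy-1 was bound with a signal of 144 and a CCAAT box centred 5 bp from the summit, while glycogen phosphorylase gene pygl-1 and the trehalose synthase genes tps-1 and tps-2 were not. None of the 4 gluconeogenic genes pck-1, pck-2, fbp-1 (fructose-1,6-bisphosphatase) and pyc-1 (pyruvate carboxylase) was bound. The pyruvate carrier genes mpc-1 and mpc-2, the glycerol-3-phosphate dehydrogenase genes gpdh-1 and gpdh-2, the malic enzyme gene men-1, and dlat-2, related to dlat-1, were not bound. In 6 of the 12 bound genes of this list the peak was shared with another coding gene, against 41.3% of all bound coding genes. These were icl-1, mev-1, sdhd-1, pdp-1, idh-2 and rpia-1. For all of them but icl-1 the summit lay nearer to the start of the other gene. Of the 18 that were not bound, 7 had a pooled region in the promoter, against 14.1% of all coding genes not bound. Peak summits within 1000 bp of a start lay 767 bp upstream of pyc-1 (signal 87.6), 685 bp downstream in mpc-1 (66.1) and 972 bp downstream in pygl-1 (64.0).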

How the data were processed

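The deposited lists are in narrowPeak format and build ce11, per the file listings, with 1 list per replicate (21476 and 28596 regions), a list from both replicates pooled (15515 regions), each with background regions, and the peaks of the pooled list that passed a reproducibility (IDR) threshold. The deposited signal is the caller's enrichment value per region, of unstated scale, and the deposited −log10 q-value was not used. No source used here names the aligner, the caller or the thresholds. The lists hold no read counts, so the depth is unknown. Lists in build ce10 and control data were not used.

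A summit is the region's start plus the deposited offset. Starts came from Ensembl release 115 (29314 coding starts) and bases from RefSeq WBcel235. A peak could serve several genes. Each gene took its strongest promoter summit. Replicates were read by the region over that summit. Leaving out a replicate meant scoring promoters with the 4098 strongest regions of the other replicate's own list. Those regions had not passed the reproducibility threshold. By rule, bound members were given in full, and of the other members those with a summit within 1000 bp or a pooled region in the promoter. Of the other central carbon genes the rule covered the bound ones alone. The genes, lists and alternatives were chosen with earlier results of these data known, and the grouping of genes by enzyme was made after values were seen. The labels call the replicates biological. Scripts used Python 3.11.15 with pandas 2.3.3 and SciPy 1.17.1 and were tested on simulated summits and boxes.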

Additional observations from a re-analysis of the deposited data

How the results depend on the processing

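Of 54 values recomputed under the alternatives (promoter width, assignment of peaks, threshold, replicates and box window), 43 stayed within 1.5 times the reported one or, for the median signal, within 8.97, the SD between the replicates' medians. Those 2 medians, 62.6 and 49.95, come from the replicates' own lists and not from the peak list (124.9). For the median signal this limit is therefore only a rough guide. The mitochondrial count lay between 7 and 11 of 13 throughout, against 5.68% to 23.7% of all coding genes. In the upper 50% of peaks by signal, 9 members were bound (5.68% of all coding genes), of which 2 were cytosolic. Among those peaks 5 other central carbon genes were bound. CCAAT stood at 1 of the 9 bound members, against 20.8% of all bound coding genes. The members' median signal was 144.6, against 171.9 over all bound coding genes, so that the members' median was then the lower one. With the whole pooled list, background regions included, 7 cytosolic genes and 19 other central carbon genes were bound (23.7% of all coding genes). With each summit given to its nearest start alone, 7 other central carbon genes were bound, against 8.85% of all coding genes. Under that setting aco-2, hxk-2 and pdhb-1 were lost among the members. A promoter reaching 250 bp up and 50 bp down lost aco-2 and pdhb-1, with 7.28% of all coding genes bound. Within 25 bp of the summit 1 bound member held CCAAT, against 10.5% of all bound coding genes. Leaving out a replicate gave 13 to 16 bound members, 4 to 6 cytosolic, 9 and 9 mitochondrial, and 7 to 11 other central carbon genes. The share of all coding genes was 11.4% without replicate 1 and 10.5% without replicate 2. CCAAT stood at 1 to 2 bound members, against 18.5% of all bound coding genes without replicate 1 and 19.7% without replicate 2. Without replicate 1, idha-1 was lost. Without replicate 2, fum-1 was lost, enol-1, gpd-2 and pck-2 were gained, and 7 other central carbon genes were bound. The wider promoter (14.1% of all coding genes bound) gained ldh-1, and any overlap (12.5%) gained pyk-1. The pooled list gained enol-1, gpd-2, gpi-1, ogdh-1 and pck-2. No paired analysis was possible because there was 1 group. Depth is unknown, so a promoter with no summit had none detectable in these lists.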

Other observations

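CGCGC, searched on both strands, was common in the promoters of the enzyme genes whether or not they were bound. Windows of 601 bp at the annotated gene starts held it in 9 of 14 bound members (64.3%) and in 12 of 22 members that were not bound (54.5%). The share was 52.0% over the promoters of all bound coding genes and 24.1% over those of all coding genes. By compartment the counts were 7 of 13 mitochondrial and 13 of 21 cytosolic genes. The same windows had a median GC content of 37.4% in bound members and 34.3% in members that were not bound, against 34.6% over all coding genes. Whether base composition accounts for these shares was not tested.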
